A study of Prunus sibirica with 6 samples.

Results

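The loci described here are 1265 entries of a flower bud expression table whose identifiers contain the word newGene (full form Prunus_sibirica_newGene_214, shortened below to newGene_214), out of 34055 entries in all. They were chosen by identifier alone, with no expression value used. The other 32790 entries start with PaF106G and are taken as reference gene models. The numbers of the new loci run from 4 to 2399 and 1131 numbers in that range do not occur in the table. The label of new loci outside the reference gene models rests on the identifier: the table gives no coordinates, sequences, gene names or products for them, and no source used here says how they were assembled.

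Genome annotations are made from one reference plant, and RNA sequencing of another plant commonly yields transcribed places that fall outside them. Such loci can be protein-coding genes that the annotation missed, long non-coding RNAs, transposable elements, extensions of known genes, or sequences that differ between the reference and the plants studied. In apricots and their relatives, the pistil is the female organ that gives the fruit, so a flower whose pistil aborts sets none.

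RNA of whole flower buds was sequenced from 2 clones of Prunus sibirica (Siberian apricot), with 3 libraries each. Clone 595 carries abortive pistils and clone 28 carries normal pistils, and the labels list both pistil types under the heading treatment group. The labels name no agent given to either clone. The stage of the buds, the age of the trees and whether replicates came from separate trees are not stated in the labels, so p-values measure the spread between these libraries, which may be technical. Each clone is 1 genotype, so clone and pistil type cannot be told apart. Values are in FPKM, which counts sequenced fragments by transcript length and library size, so that levels can be compared between loci. They sum to 624935 to 639355 per library. Identifiers carry no names, so the tissue label was not checked against marker genes.

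New loci were mostly weakly expressed. Their median level over the 6 libraries was 0.576 FPKM, with quartiles of 0.179 and 2.19 FPKM, and the reference gene models had a median of 2.17 FPKM with quartiles of 0.0356 and 15.6 FPKM. Among classes of unequal width, the largest lay under the limit of 1 FPKM used for testing. It held the 572 new loci (45.2%) with a mean of 0.1 to 1 FPKM, against 14.3% of the reference gene models. At the top, 47 new loci (3.72%) reached a mean of 20 FPKM and 6 reached 100 FPKM, where the reference gene models had 20.7% and 3.75%. No new locus was listed at 0 in all 6 libraries, whereas 5856 reference gene models (17.9%) were. Whether the new loci were assembled from these libraries is not stated.

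**Figure D1:**
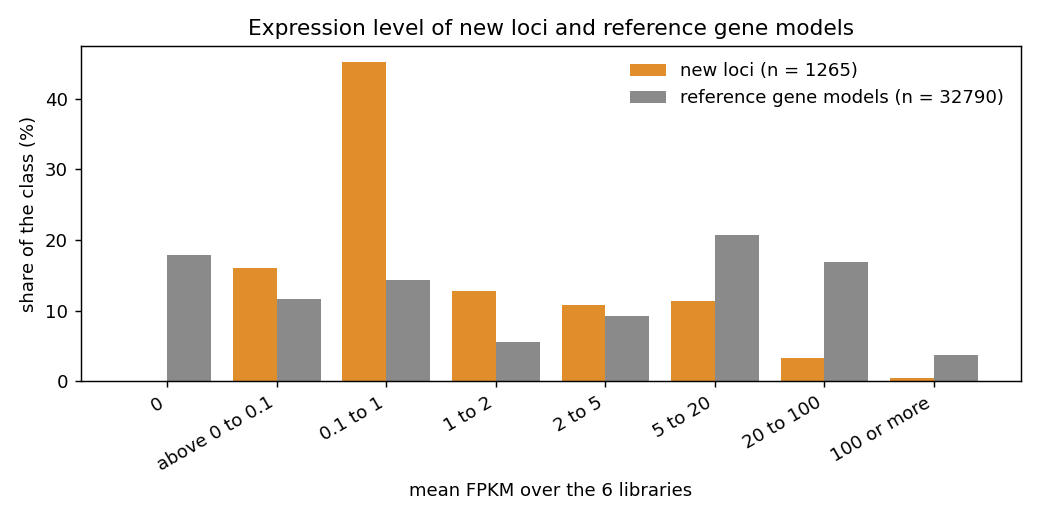
Share of new loci (orange, 1265) and of reference gene models (grey, 32790) in classes of mean FPKM over the 6 libraries. The classes are of unequal width. The new loci peak at 0.1 to 1 FPKM with 45.2% and have none at 0, and the reference gene models peak at 5 to 20 FPKM with 20.8%.

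Of the 1265 new loci, 490 (38.7%) averaged at least 1 FPKM over the 6 libraries and were tested; the other 775 were not. At this limit, newGene_616 and newGene_125 both lay just inside with a mean of 1.002 FPKM. The loci just outside were newGene_591 at 0.995 and newGene_779 at 0.994 FPKM. Levels near the limit differed in kind: newGene_616 was detected in every library, at 0.215, 1.17 and 0.531 FPKM with abortive and 1.34, 1.76 and 0.993 FPKM with normal pistils, and newGene_125 was listed at 0 in all 3 normal pistil libraries. Its abortive pistil values were 1.99, 2.59 and 1.43 FPKM.

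The part of the summed expression that fell on new loci overlapped between the clones. New loci took 0.766%, 0.766% and 0.761% of the summed FPKM in the abortive pistil libraries and 0.773%, 0.784% and 0.735% in the normal pistil libraries. The means were 0.764% ± 0.00265 and 0.764% ± 0.0253 (SD, n = 3 each), and the abortive values lay inside the range of the normal ones (exact permutation test, two-sided, p = 1, where the smallest p that 3 against 3 allows is 0.1). Normal pistil replicate 3 was the lowest of the 6. The number of new loci at 1 FPKM or more was 473, 499 and 478 with abortive and 496, 503 and 456 with normal pistils, means of 483.3 ± 13.8 and 485.0 ± 25.4 (SD, n = 3 each; exact permutation test, two-sided, p = 0.9). New loci above 0 numbered 1020, 1007 and 999 with abortive and 1013, 983 and 975 with normal pistils (exact permutation test, two-sided, n = 3 each, p = 0.3). In whole buds, fewer cells that express a locus and less RNA of it per cell cannot be told apart.

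The summed level of the new loci rested on few of them. The single most abundant locus held 6.33% of it, the 8 most abundant 23.5% and the 50 most abundant 52.1%. The highest, newGene_214, was at 308.6, 308.5 and 317.2 FPKM with abortive and 311.6, 275.1 and 314.4 FPKM with normal pistils, and ranked 259 among all 34055 entries by mean level. Its libraries overlapped between clones, with a log2 change (abortive minus normal on the log2(FPKM + 1) scale) of 0.05 ± 0.07 (standard error; limma, Benjamini-Hochberg adjusted p = 0.58). Next came newGene_410, with a mean of 165.4 ± 4.66 FPKM in abortive and 160.7 ± 5.26 FPKM in normal pistil libraries (SD, n = 3 each), a log2 change of 0.04 (limma, adjusted p = 0.617).

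Of the other 6 abundant loci, 3 did not pass the test. newGene_2058 was at 166.7, 168.8 and 162.7 FPKM with abortive and 157.2, 152.8 and 146.3 FPKM with normal pistils. Its libraries did not overlap between clones, but its log2 change of 0.13 did not pass the test (limma, adjusted p = 0.119); after scaling of each library by its median log ratio to the other libraries it was 0.20 and passed (limma, adjusted p = 0.0364). newGene_190 was the most variable of the 8, at 150.5, 167.5 and 115.7 FPKM with abortive and 104.0, 113.1 and 125.4 FPKM with normal pistils. Abortive pistil replicate 3 lay within the normal pistil range, and the log2 change of 0.33 did not pass (limma, adjusted p = 0.0598). Without that library it was 0.48 and passed (limma, adjusted p = 0.00444). Leaving out any other single library gave 0.21 to 0.40 and did not pass (limma, adjusted p = 0.0597 to 0.212). newGene_811 was at 67.6 ± 3.89 and 74.7 ± 4.38 FPKM (SD, n = 3 each; limma, adjusted p = 0.131).

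The other 3 of the 8 passed the test. newGene_933 fell with abortive pistils: it was at 86.7, 76.3 and 92.3 FPKM there and at 122.5, 135.1 and 115.4 FPKM with normal pistils. Its libraries did not overlap, and the log2 change was -0.54 ± 0.09 (standard error; limma, adjusted p = 8.33e-04). newGene_165 was at 96.0, 105.9 and 104.2 FPKM with abortive and 130.6, 121.0 and 112.7 FPKM with normal pistils, a log2 change of -0.25 ± 0.07 (standard error; limma, adjusted p = 0.0208). It did not pass after median log ratio scaling (-0.18, adjusted p = 0.0587 by limma) or without the intensity trend (limma, adjusted p = 0.0541). It also missed the threshold without abortive pistil replicate 1 (-0.20, limma, adjusted p = 0.072), normal pistil replicate 1 (-0.19, limma, adjusted p = 0.0636) or normal pistil replicate 2 (-0.25, limma, adjusted p = 0.0572). newGene_1089 rose, from 82.2, 80.5 and 73.3 FPKM with normal to 105.9, 99.7 and 92.0 FPKM with abortive pistils, a log2 change of 0.33 ± 0.07 (standard error; limma, adjusted p = 0.00557). The next most abundant locus that rose was newGene_1434, at 48.9 ± 1.70 with abortive against 29.9 ± 2.43 FPKM with normal pistils (SD, n = 3 each), a log2 change of 0.69 (limma, adjusted p = 7.54e-05).

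**Figure D2:**
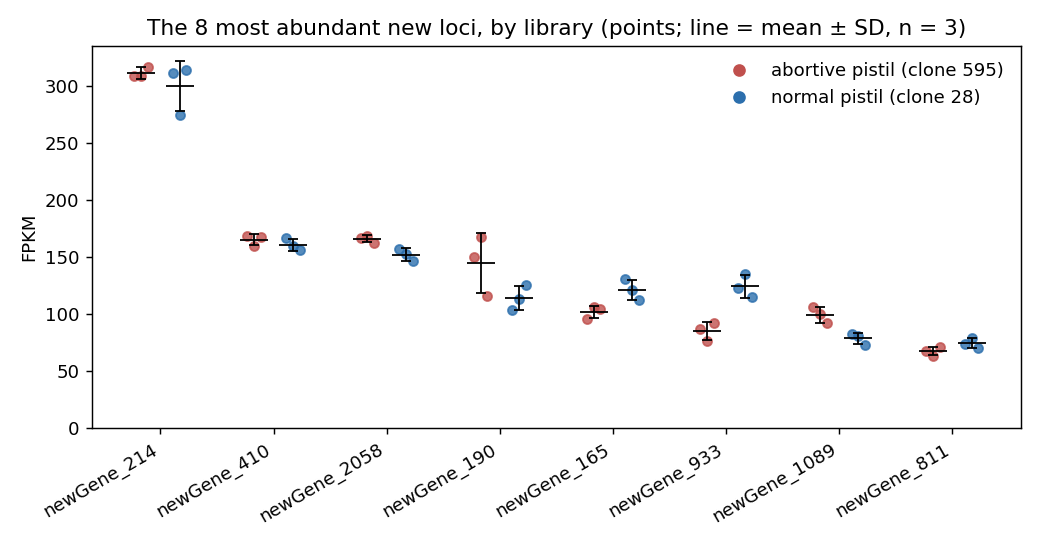
FPKM of the 8 most abundant new loci in each of the 3 abortive pistil (red) and 3 normal pistil (blue) libraries, with the mean ± SD of each clone. newGene_214 stands near 300 FPKM in both clones (means 311.4 and 300.4), and only newGene_2058, newGene_165, newGene_933 and newGene_1089 have libraries that do not overlap between clones.

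Across the tested new loci, 103 were higher and 111 lower in the abortive pistil clone, 214 of 490 or 43.7% (limma over all 18904 tested entries, Benjamini-Hochberg adjusted p under 0.05). Over all tested entries 44.0% were called, 17.6% as higher and 26.4% as lower. The share among new loci is near that background and is no result about them. Values did not overlap between clones in 265 new loci (54.1%), again near the 54.8% of all tested entries. The median log2 change was -0.03 over new loci and -0.07 over all tested entries. With median log ratio scaling 120 new loci were higher and 97 lower, so which direction held more of them depended on the scaling.

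The changes that were called were moderate. Their median absolute log2 size was 0.71, with quartiles of 0.53 and 1.32, and 69 of the 214 were under 1.5-fold. Changes that reached 2-fold and were called numbered 72 (14.7%), 41 higher and 31 lower, where all tested entries gave 7.24% (3.33% higher and 3.91% lower). At least 4-fold changes were called in 7 that rose and 9 that fell, 3.27% of the tested new loci, where all tested entries gave 1.58%. The 4-fold shares were not matched for level: the median mean was 3.40 FPKM over tested new loci and 12.5 FPKM over all tested entries. They also include loci that passed the filter through their higher clone alone, so no excess is drawn from them. Most of the 2-fold loci were weakly expressed: the median level in their higher clone was 3.70 FPKM, and 5 of the 72 reached a mean of 20 FPKM in it. Leaving out abortive pistil replicate 2 turned the balance to 33 higher and 40 lower, and leaving out abortive pistil replicate 3 to 33 and 36. With a pseudocount of 0.1, 112 new loci passed 2-fold (22.9%, all entries 10.9%), and with 0.01, 113 did (23.1%, all entries 11.3%). With a minimum mean of 5 FPKM 13 did, 6.81% of the new loci against 4.60% of all entries.

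Both loci with the most raised values were at or close to 0 in the normal pistil clone. newGene_1525 was at 11.1, 10.1 and 8.73 FPKM with abortive pistils while the normal pistil libraries listed it at 0, 0 and 0.0315 FPKM. The log2 change came to 3.43 ± 0.13 (standard error; limma, adjusted p = 9.27e-08). newGene_1339 was at 8.56, 8.49 and 9.50 FPKM with abortive pistils and was listed at 0 in all 3 normal pistil libraries (log2 change on the FPKM + 1 scale 3.30, limma, adjusted p = 8.04e-08). No fold is given against a clone at 0. In the other direction, newGene_1205 was at 21.8, 22.0 and 24.98 FPKM with normal pistils and at 0.647, 1.51 and 0.996 FPKM with abortive pistils. It was detected in every library of both clones, and its log2 change of -3.56 ± 0.15 was the lowest of the tested new loci (standard error; limma, adjusted p = 2.27e-07). newGene_1669 was at 8.88, 6.81 and 8.25 FPKM with normal pistils while the abortive pistil libraries listed it at 0, 0.196 and 0 FPKM (log2 change -3.07, limma, adjusted p = 4.05e-07).

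**Figure D3:**
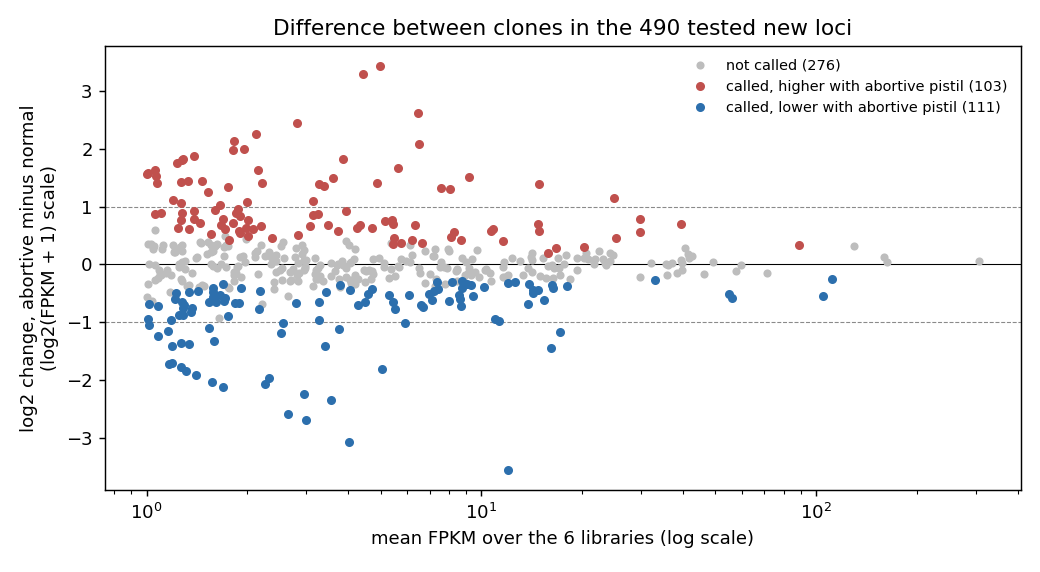
Log2 change between clones (abortive minus normal, log2(FPKM + 1) scale) against mean FPKM (log axis) for the 490 tested new loci. Red and blue points are loci called higher (103) and lower (111) with abortive pistils by limma, grey points were not called, and dashed lines mark 2-fold. Points beyond 2-fold lie mostly at low levels, and the lowest is newGene_1205 at -3.56.

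The filter itself favours large changes among loci whose mean falls under 1 FPKM in the lower clone. Of the 490 tested loci, 393 averaged 1 FPKM or more in each clone. The other 97 passed the filter through 1 clone alone, 50 through the abortive and 47 through the normal pistil clone. Their clone means lay on either side of 1 FPKM by this selection, which favours a difference but does not ensure it. Among them, 78 were called (80.4%), where reference gene models in the same position gave 78.9%. Of the 97, 49 were called and reached 2-fold (50.5%), close to the 46.8% of the 1122 reference gene models in the same position. Among the 393, a division made after the data had been seen, 136 were called (34.6%; all entries of this kind 41.6%) and 23 with at least 2-fold (5.85%; all entries 4.50%), 14 of them higher and 9 lower. Reference gene models in the same position, weighted to the levels of the new loci as described next, gave 37.1% and 4.92%. The 97 loci made 19.8% of the tested new loci. The corresponding share was 6.09% of reference gene models and 17.7% after weighting.

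To compare entries of like abundance, the tested reference gene models were split into 10 classes holding equal numbers of tested new loci by mean FPKM, and each class was given the weight it has among new loci. Before weighting, the tested reference gene models had a median mean of 12.9 FPKM, against 3.40 FPKM for the new loci. These are descriptions over loci, which are not replicates, and they carry no test. The spread between replicates, taken as the pooled standard deviation of log2(FPKM + 1) within clones, had a median of 0.148 over new loci, 0.124 over reference gene models and 0.158 over reference gene models weighted for level. The coefficient of variation gave medians of 13.5%, 9.15% and 14.2% in the same order. In the abortive pistil clone the median standard deviation was 0.126 for new and 0.143 for weighted reference entries, and in the normal pistil clone 0.136 and 0.139.

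Clone specificity was measured as the share of the higher clone in the sum of both clone means, which is 0.5 for equal levels and 1 for a locus found in one clone alone. Its median was 0.574 over new loci and 0.572 over weighted reference gene models, so the medians lay close together. A share of at least 0.9 was found in 34 tested new loci (6.94%), 18 on the abortive and 16 on the normal pistil side, in 1.76% of reference gene models and in 3.79% after weighting. Of these 34, 32 had a mean under 1 FPKM in one clone and so passed the filter through the other alone, as did 299 of the 325 reference gene models with such a share. The filter favours such shares among them, and no difference between the kinds of entry is drawn from these shares. Called 2-fold changes made 14.7% of new loci and in 11.1% of weighted reference gene models. By class of level, a share of at least 0.9 was found in 13.0% of the 162 new loci and 6.95% of the reference gene models at 1 to 2 FPKM, in 8.03% of 137 and 4% at 2 to 5 FPKM, and in 1.39% of 144 and 0.911% at 5 to 20 FPKM. None of the 47 new loci at 20 FPKM or more had such a share.

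**Figure D4:**
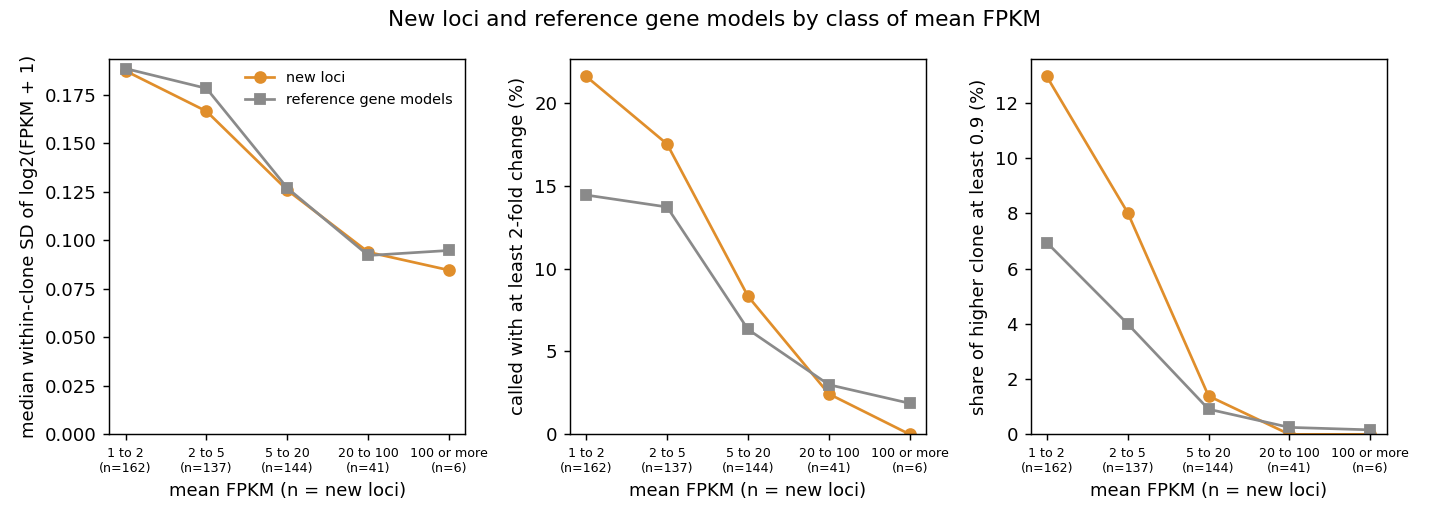
New loci (orange) and reference gene models (grey) in 5 classes of mean FPKM: the median within-clone standard deviation of log2(FPKM + 1), the percentage called by limma with at least a 2-fold change, and the percentage whose higher clone holds at least 0.9 of the summed clone means. The spread curves lie close together (0.187 and 0.189 at 1 to 2 FPKM), and the specificity curves read 13.0% and 6.95% at 1 to 2 FPKM, where most such loci passed the filter through one clone alone, and 1.39% and 0.911% at 5 to 20 FPKM.

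Libraries of one clone resembled each other over the new loci. Pearson's r of log2(FPKM + 1) across the 490 tested loci averaged 0.982 within clones (0.979 to 0.983 over 6 pairs) and 0.835 between clones (0.823 to 0.846 over 9 pairs). Over the reference gene models it averaged 0.990 and 0.938. These values are across loci within pairs of libraries, and the new loci span lower levels, so the sets are not compared further. The first principal component of the new loci held 85.7% of the variance, with the abortive pistil libraries at -8.73, -8.90 and -8.39 and the normal pistil libraries at 8.63, 9.08 and 8.31. Over the reference gene models it held 80.8% and likewise set the clones on opposite sides, so the separation is not particular to new loci.

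A set of 22 new loci had at least 1 FPKM throughout one clone and 0 throughout the other: 10 were at 0 in the abortive pistil clone and 12 in the normal pistil clone. They are 4.35% of the 506 new loci with at least 1 FPKM throughout a clone. Over all entries this share was 0.782% (0.454% for entries at 0 with abortive and 0.370% for entries at 0 with normal pistils). It was 1.53% for reference gene models weighted to the levels of the new loci in their higher clone. All 22 count among the 506 only through the clone that has them, and whether the loci were assembled from these libraries is not stated. No excess is drawn from these shares. The loci were chosen by their values, so they are described without a test; 13 of the 22 passed the filter of 1 FPKM and all 13 were called, which their choice implies. All but 1 were weakly expressed, with means of 1.15 to 3.40 FPKM in the clone that had them.

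The exception was newGene_1339, at 8.85 ± 0.564 FPKM (SD, n = 3) with abortive pistils. Loci are given next in the order of their lowest library, which is not the order of their means. Among loci at 0 with normal pistils newGene_1471 came next, at 2.46, 2.46 and 2.77 FPKM with abortive pistils. newGene_1928 was at 1.83, 3.43 and 2.38 FPKM with abortive pistils, with replicate 2 the highest. newGene_1992 was at 2.44, 2.10 and 1.81 FPKM in the same libraries. Among the loci at 0 with abortive pistils, newGene_1771 was first, at 4.08, 3.59 and 2.51 FPKM with normal pistils. newGene_1378 was at 2.41, 3.76 and 2.28 FPKM, newGene_1871 at 2.86, 2.87 and 2.14 FPKM, and newGene_1019 at 1.99, 2.18 and 2.83 FPKM with normal pistils. Normal pistil replicate 3 was the lowest in newGene_1771, newGene_1378 and newGene_1871 and the highest in newGene_1019.

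**Figure D5:**
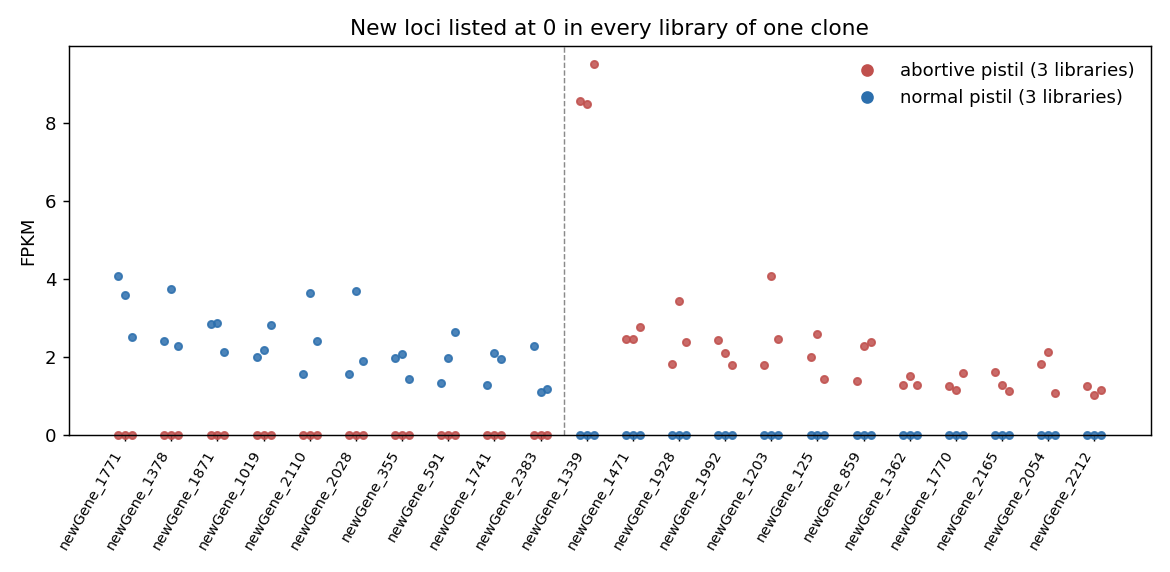
FPKM by library of the 22 new loci listed at 0 in every library of one clone, with red points for the 3 abortive and blue points for the 3 normal pistil libraries. The 10 loci to the left of the dashed line are at 0 with abortive and the 12 to its right at 0 with normal pistils; newGene_1339 is the only one above 5 FPKM.

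Zeros also occurred inside clones. Of the 1265 new loci, those with a 0 beside a replicate of 1 FPKM or more in one clone numbered 2 with abortive and 10 with normal pistils. With a limit of 2 FPKM in that replicate there were none and 2. The 32790 reference gene models gave 81 with abortive and 58 with normal pistils, and 34 and 19 with the limit of 2 FPKM. The totals differ and the new loci of this kind are few, so the balance between clones is not compared. The 10 new loci on the normal pistil side were at 0 in 3, 3 and 5 cases in replicates 1, 2 and 3 of that clone. At any level above 0, 50 new loci were at 0 throughout the abortive and present in every normal pistil library. The reverse held for 57, and both kinds made 8.46% of the 1265. The reference gene models gave 2.06%, unweighted for level, and no difference is drawn from these shares. The loci with the largest spread between replicates included such zeros. newGene_2236 was at 1.10, 1.14 and 0 FPKM with abortive and 4.01, 3.11 and 0.521 FPKM with normal pistils, with replicate 3 of each clone lowest. Its log2 change of -0.93 did not pass (limma, adjusted p = 0.107), and without normal pistil replicate 3 it was -1.46 and passed (limma, adjusted p = 0.00972). Leaving out any other single library gave -1.12 to -0.57 and did not pass (limma, adjusted p = 0.0992 to 0.320). newGene_1594 was at 1.20, 3.03 and 1.80 FPKM with abortive and 3.12, 1.15 and 0 FPKM with normal pistils, and its clones overlapped (limma, adjusted p = 0.377). newGene_610 had its first abortive pistil library apart from the rest, at 8.57, 3.11 and 2.75 FPKM with abortive and 1.99, 3.46 and 3.83 FPKM with normal pistils (limma, adjusted p = 0.351).

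Neighbouring numbers of new loci went the same way about as often as not. Among 123 pairs of tested loci with consecutive numbers, 64 changed in the same and 59 in opposite directions, whether called or not, and of the 24 pairs in which both were called 13 went the same way and 11 opposite ways. No source used here says whether the numbers follow positions in the genome. Outside these pairs, since newGene_1770 was too weak to be tested, newGene_1770 and newGene_1771 were noticed after the values were seen: newGene_1770 was at 1.27, 1.16 and 1.61 FPKM with abortive pistils and 0 in the normal pistil libraries, and newGene_1771 was the reverse, with the values given above.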

How the data were processed

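RNA of flower buds was sequenced in 6 libraries, 3 from each of 2 clones. The authors deposited 1 table of FPKM values; its header names the 6 libraries and records no other normalization. The submitters' processing notes name edgeR, GATK, HISAT2, Picard and SAMtools 0.1.18; the role of each, the quantifier, the genome build and the assembly of new loci are not stated in any source used here. Whether libraries keep the strand is not stated, so antisense and overlapping loci cannot be told apart. Depth is unknown: of the ratios between paired libraries of entries under 0.2 FPKM, a window 0.1% wide held 0.562% or less in all 15 pairs, so no whole-read steps were found. The number of replicates sets the precision (median standard error of a log2 change 0.14 over new loci). Exact zeros are given as listed at 0.

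Tests used limma 3.58.1 (R 4.3.3) on log2(FPKM + 1) with a trended prior variance, two-sided, over the 18904 entries with a mean of at least 1 FPKM, with Benjamini-Hochberg adjustment over all of them and calls under 0.05; log2 changes on this scale understate the change of low entries. The code was tested on simulated data. Alternatives were other pseudocounts, filters and scalings, a replicate block, no trend, a stricter adjusted p, other classes of level and each library left out. Values per library were compared by exact permutation tests. The labels number replicates 1 to 3 in both clones without saying that a number is shared. The named loci are the 8 most abundant, for each clone the 4 loci at 0 there whose lowest library in the other clone was highest, the 2 highest and lowest log2 changes with at least 5 FPKM in the higher clone and no overlap, the 2 most abundant called in each direction, 2 on each side of the 1 FPKM limit and the 3 with the largest spread. Members, lists and rules were chosen with earlier results of these data known. The pair of consecutive numbers and the division by a mean of 1 FPKM in both clones were added after the data were seen. No sequences were used.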

Additional observations from a re-analysis of the deposited data

How the results depend on the processing

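None of the 214 called new loci reversed its sign in the 15 alternative fits, as far as each was tested there; neither the replicate block nor the fit without an intensity trend alters a log2 change. The replicate block gave 204 calls of new loci, 199 of them shared with the main test; the replicate numbers were not taken to pair the libraries, whose same-numbered deviations correlated at -0.07 to -0.03. The 214 calls became 443 with no filter (1265 tested), 78 with a mean of at least 5 FPKM (191 tested), 120 with at least 1 FPKM in every library (341 tested) and 136 with 1 FPKM or more on average in each clone, where the number of loci tested differs. They were 172 to 204 without 1 library. The 72 called 2-fold changes (14.7%, all entries 7.24%) became 112 (22.9%, all 10.9%) and 113 (23.1%, all 11.3%) with pseudocounts of 0.1 and 0.01. After rescaling to TPM they were 123 of 610 (20.2%, all 9.17%). With a mean of at least 5 FPKM they were 13 (6.81%, all 4.60%). With at least 1 FPKM in every library they were 19 (5.57%, all 4.13%). With 1 FPKM or more on average in each clone they were 23 (5.85%, all 4.50%). Leaving out a library gave 66 to 76 (13.58% to 15.45%, all 7.2% to 7.6%). None of these shares is matched for level. The 22 loci at 0 in one clone were 1 with at least 5 FPKM in the other, 32 with up to 0.1 FPKM in place of 0, and 23 to 26 without a library.

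Differences between clones in values per library had no stable sign. The difference in share of summed FPKM was 5.46e-04 percentage points, -0.00143 without the most abundant and -0.00183 without the 10 most abundant new loci, and -0.0137 to 0.0104 without a library. The difference in loci at 1 FPKM or more was -1.67, but 0.667 at 5 FPKM, 18.3 for loci above 0, 12.0 after median log ratio scaling, and -16.2 to 7.33 without a library. The ratio of new loci to weighted reference entries was 0.935 for spread (0.906 to 0.991 without a library) and 1.003 for median clone specificity. The latter was 1.031 on absolute log2 change, 0.993 with at least 1 FPKM in every library and 0.9997 to 1.007 without a library. Of 25 named and tested loci, 17 kept their direction and side of the threshold under every alternative in which they were tested. Not every locus entered every fit. The fit with a mean of at least 5 FPKM held 10 of the 25, and that with at least 1 FPKM in every library held 10. Changes of sign occurred in newGene_214 (-0.00756 to 0.0884 over the fits without a library), newGene_1594 (-0.0274 to 0.993) and newGene_610 (-0.0297 to 0.645), none of them called in the main test. With the replicate block, newGene_190 (limma, adjusted p = 0.0482), newGene_616 (limma, adjusted p = 0.0292) and newGene_2236 (limma, adjusted p = 0.00182) passed. The cause was not tested. Depth is unknown, so no detection limit can be given for weak loci.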
